A study of Mus musculus with 16 samples.

Results

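Collagen genes were followed across 16 RNA sequencing libraries of mouse kidney cortex, from sedentary mice and from mice exercised on a treadmill. The members were the protein-coding genes whose GENCODE M21 symbol has the form Col, a number, the letter a and a number, which gave 44 of the 55414 genes in the count table. All libraries came from wild-type male C57BL/6J mice, an inbred laboratory strain, and the labels give no age and no further allele or agent. A sedentary group (Sed) was set beside 3 groups given forced treadmill running for 40 minutes at 70% of capacity over 1 day (24 h), 1 week (1 wk) or 2 weeks (2 wk), with 4 libraries in each of the 4 groups. The labels do not state how long after its last run any group was sampled, so 24 h may be the span of the exercise or the time since it. They number the libraries of a group without naming separate animals, so p-values reflect only how these libraries vary, some of which could be technical. Each library name also holds a code of its own, which the labels do not explain. The library names are numbered in order of group, so that order cannot be told apart from the exercise. The titles carry an unexplained letter, G for sedentary and F for exercised libraries, which cannot be told apart from the exercise itself. The comparisons of the 3 exercised groups with sedentary share the same 4 sedentary libraries.

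Collagens are proteins of 3 chains wound into a triple helix, made as procollagen in the endoplasmic reticulum, where prolyl hydroxylases and the chaperone HSP47 act on them. Fibrillar collagens such as types I and III form the tensile fibrils of the interstitium and accumulate in kidney fibrosis. Type IV collagen is the sheet-forming collagen of basement membranes, under every tubule, around vessels and in the glomerular filter. In the kidney the alpha 1 and alpha 2 chains of type IV lie in most basement membranes, while the alpha 3, alpha 4 and alpha 5 chains of the mature glomerular basement membrane are made by podocytes, and their loss causes Alport syndrome.

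Total counts ranged from 39766260 to 66852397 per library. Of the 44 collagen genes, 43 had at least 1 count and 33 had enough counts to be tested, while the other 11 reached at most 12 counts in a library. Kidney markers were present, with the proximal tubule transporter gene Slc34a1 at 7018 CPM (counts per 1000000 counts of the library, scaled by TMM) on average. The share of counts from the mitochondrial genome was 2.16 to 2.71% at 24 h, below the 3.61 to 4.52% of the sedentary libraries. It was 2.66 to 4.235% in the other exercised libraries. Its part in the differences at 24 h was not tested.

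Several type IV genes are neighbours in pairs that start head to head. In GENCODE M21 (GRCm38), Col4a1 (chr8:11198423-11312826, minus strand) and Col4a2 (chr8:11312805-11449287, plus strand) overlap by 22 bases at their starts. Col4a4 (chr1:82448423-82586849, minus strand) and Col4a3 (chr1:82586921-82722059, plus strand) lie 71 bases apart, and Col4a6 and Col4a5 on chromosome X lie 1308 bases apart. The promoters of the first pair and of Col4a4 are shown because these genes give the largest type IV counts, and those of Col1a2 and Col3a1 because these genes had the largest fitted decreases from 24 h to 1 wk among the 33 genes tested. Each window runs from 250 bases before to 50 bases after the start in RefSeq on GRCm38.p6, 5′ to 3′ on the gene's strand. In the Col4a1 (chr8:11312777-11313076, minus) and Col4a2 (chr8:11312555-11312854, plus) windows, capitals mark the 78 bases that both hold, on opposite strands. In the Col1a2 (chr6:4505368-4505667, plus) and Col3a1 (chr1:45311288-45311587, plus) windows, capitals mark matches to GGGCGG, the GC box, to CCAAT and to CAGACA, which holds the letters of the Smad box, on either strand. The Col4a4 window (chr1:82586800-82587099, minus) holds none of these motifs.
Col4a1: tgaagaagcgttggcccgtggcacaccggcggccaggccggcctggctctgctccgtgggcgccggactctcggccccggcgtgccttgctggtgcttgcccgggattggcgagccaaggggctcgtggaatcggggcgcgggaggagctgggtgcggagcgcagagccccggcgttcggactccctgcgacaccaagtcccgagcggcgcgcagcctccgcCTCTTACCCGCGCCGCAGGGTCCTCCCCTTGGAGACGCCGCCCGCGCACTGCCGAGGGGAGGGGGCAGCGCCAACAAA
Col4a2: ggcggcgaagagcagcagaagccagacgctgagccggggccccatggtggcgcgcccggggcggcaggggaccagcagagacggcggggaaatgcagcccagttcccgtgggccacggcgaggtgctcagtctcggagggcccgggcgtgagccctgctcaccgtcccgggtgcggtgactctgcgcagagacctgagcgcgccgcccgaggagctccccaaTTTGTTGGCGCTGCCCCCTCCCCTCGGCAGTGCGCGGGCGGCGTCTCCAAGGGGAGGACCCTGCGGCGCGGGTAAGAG
Col4a4: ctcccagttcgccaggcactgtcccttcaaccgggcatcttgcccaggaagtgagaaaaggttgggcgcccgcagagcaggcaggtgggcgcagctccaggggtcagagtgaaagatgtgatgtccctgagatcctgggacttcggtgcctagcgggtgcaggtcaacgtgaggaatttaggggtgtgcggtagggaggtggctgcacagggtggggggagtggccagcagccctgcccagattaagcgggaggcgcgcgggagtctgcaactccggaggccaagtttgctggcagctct
Col1a2: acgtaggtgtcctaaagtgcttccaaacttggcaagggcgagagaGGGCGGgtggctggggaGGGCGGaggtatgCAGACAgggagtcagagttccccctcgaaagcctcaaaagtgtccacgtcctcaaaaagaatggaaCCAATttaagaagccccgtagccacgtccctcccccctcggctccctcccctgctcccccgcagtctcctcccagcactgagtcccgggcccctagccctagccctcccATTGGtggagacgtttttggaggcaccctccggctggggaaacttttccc
Col3a1: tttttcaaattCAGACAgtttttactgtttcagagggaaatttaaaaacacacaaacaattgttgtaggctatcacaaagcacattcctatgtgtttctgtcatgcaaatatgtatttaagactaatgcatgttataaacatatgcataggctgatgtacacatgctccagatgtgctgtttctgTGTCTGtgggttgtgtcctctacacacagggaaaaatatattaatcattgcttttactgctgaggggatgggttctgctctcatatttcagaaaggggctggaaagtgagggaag

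Of the 5 windows shown, 4 held more G and C than the median window and that of Col3a1 held less. G and C made up 74.0% of the Col4a1 window, 73.7% of Col4a2, 63.3% of Col4a4 and 61.0% of Col1a2, against 37.7% of Col3a1 and a median of 52.7% over all windows. RefSeq windows were matched for 35 of the 44 genes, 38 windows in all. GGGCGG was in 23 of these 38 windows (60.5%) and in 35.7% of all 32851 windows. CCAAT was in 13 of the 38 (34.2%) and in 37.4% of all windows, and CAGACA in 9 of the 38 (23.7%) and in 21% of all windows. The TATA motif TATAAA was in 5 of the 38 (13.2%) and in 13.6% of all windows, with 1 match in Col3a1 left in lower case. A match of letters is a description and not a binding site.

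Basement membrane collagens made up most of the collagen RNA of the cortex. The 44 genes together took 0.0806 to 0.118% of all counts in a library. Of the summed collagen CPM, the 6 type IV genes held 62.5%, the 2 multiplexins 17.8% and the 11 fibrillar genes 11.1%, before any account of gene length. In RNA from whole tissue, a change in the number of cells of a type and a change in RNA per cell cannot be told apart. The 9 fibril-associated collagens held 4.13% and the 6 genes of type VI 3.30%. Transmembrane, short-chain and anchoring fibril collagens and the 2 remaining genes each held under 0.5%. Per kilobase of exon, averaged over 16 libraries, Col4a1 stood at 24.9 CPM, Col18a1 at 22.9, Col4a2 at 19.6, Col4a4 at 16.7 and Col4a3 at 10.6, and no other collagen was above 3.90, the level of Col14a1. With the length of the transcript of longest coding sequence in its place, a choice made after seeing the data, the same 5 genes led and Col18a1 came before Col4a1, at 28.7 against 28.1 CPM per kilobase.

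Below the leading 5, levels per kilobase of exon stood in the order Col14a1 (3.90), Col4a5 (3.38), Col1a1 (3.02), Col6a1 (2.91), Col1a2 (2.84), Col15a1 (2.67) and Col3a1 (2.43). The choice of length set part of this order, since on the transcript length Col1a2 stood at 6.602, above Col3a1 (4.29) and Col1a1 (3.34). Type I collagen contains more alpha 1 than alpha 2 chains, and the ratio of Col1a1 to Col1a2 per length was 1.07 ± 0.13 (SD, n = 16) by exon union but 0.508 ± 0.0596 by transcript. Ratios within type IV depended less on the length used. Col4a1 to Col4a2 was 1.27 ± 0.0764 by exon union and 1.40 ± 0.0840 by transcript, and Col4a3 to Col4a4 was 0.636 ± 0.0655 and 0.706 ± 0.0727.

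RNA of the glomerular chain gene Col4a5 was at a lower level per length than that of Col4a4. Col4a5 to Col4a4 per length was 0.207 ± 0.0469 by exon union, with a range of 0.132 to 0.331 over the 16 libraries. Col4a6, whose chain joins alpha 5 in the basement membrane of Bowman's capsule, averaged 0.988 CPM. Cartilage collagens were at or near 0, with Col2a1 at 5 counts over all libraries, Col9a1 at 1 and Col10a1 at none. A count of 0 allows up to 3 counts, or 0.0449 to 0.0754 CPM in these libraries.

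**Figure D1:**
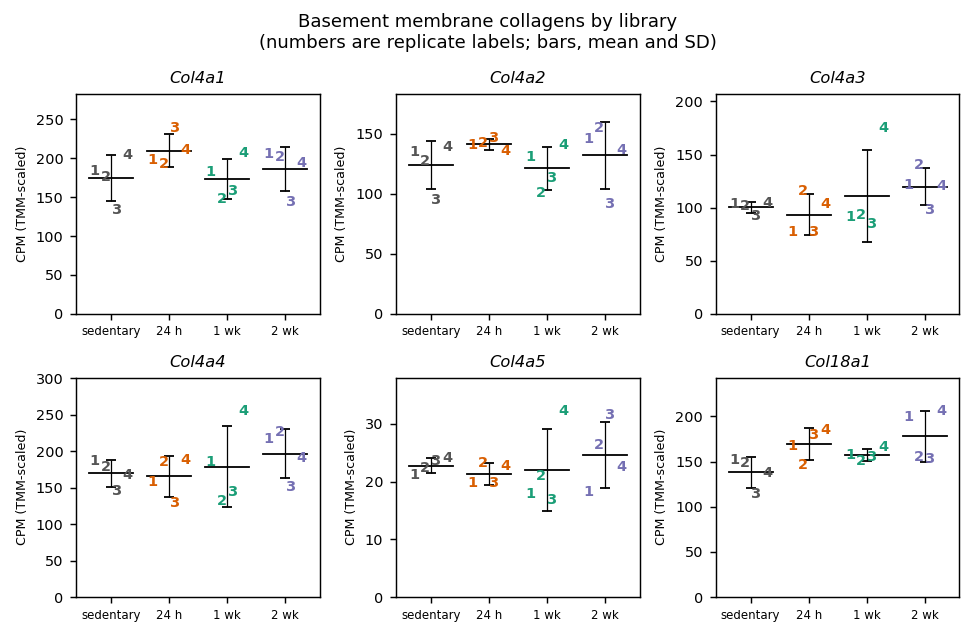
TMM-scaled CPM (linear axis from 0) of 5 type IV collagen genes and Col18a1 in each library. Digits are replicate labels, the horizontal line is the mean of 4 libraries and the bar is the SD. Library 4 of 1 wk stands at 175 CPM for Col4a3, above the other 3 libraries of its group at 84.6 to 93.0.

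The type IV genes of most basement membranes, Col4a1 and Col4a2, had no unadjusted edgeR p under 0.05 in any comparison. With 4 libraries in each group, this does not show that their levels were equal. Col4a1 was at 184, 175, 134 and 204 CPM in the sedentary libraries and at 197, 192, 239 and 211 at 24 h. It was at 182, 148, 159 and 206 at 1 wk and at 205, 202, 144 and 194 at 2 wk. All 4 groups overlapped, with sedentary library 3 lowest of all and 24 h library 3 highest. Col4a2 was at 135, 127, 94.95 and 139 CPM in sedentary and 140.4, 142, 147 and 136 CPM at 24 h. Col4a2 values of 130.4, 101, 113 and 141 CPM at 1 wk and 146, 155, 91.9 and 136 CPM at 2 wk completed the series. The 24 h libraries lay within 135.7 to 147 CPM, inside the range of 2 wk, whose library 3 was the lowest of the 16.

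The genes of the podocyte chains, Col4a3, Col4a4 and Col4a5, had their widest range at 1 wk. Col4a3 was at 103, 101, 92.5 and 104 CPM in sedentary mice and 77.0, 116, 77.1 and 103 at 24 h. At 1 wk it was at 90.9, 92.96, 84.6 and 175 CPM, and at 2 wk at 121, 139.8, 98.01 and 120.3. A single 1 wk library, number 4, was far above its group, and the same library was highest of its group for Col4a4 (255 CPM, with 131.5 to 185 in the other 3) and for Col4a5 (32.2 CPM, with 16.9 to 21.1). The summed podocyte markers in that library were 444 CPM, also the highest of the group but within the sedentary range of 390.4 to 461. In 24 h library 3 the podocyte sum was 528 CPM while Col4a3 was 77.1 CPM, second lowest of the 16.

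Multiplexins are basement membrane proteoglycans, and the gene of type XVIII, Col18a1, encodes the precursor of endostatin. Col18a1 (chr10:77052178-77166548, GRCm38, minus strand) was at 151, 149, 115 and 138 CPM in sedentary mice and 167, 146, 179.5 and 185 at 24 h. It was at 158, 151, 155 and 166 CPM at 1 wk and 199, 155, 153 and 206 at 2 wk. Every 2 wk library lay above the highest sedentary one, if by less than 2 CPM at the nearest. Col15a1, of the type XV that bridges basement membrane and interstitium around capillaries, was at 17.5, 18.9, 15.9 and 22.97 CPM in sedentary mice and 22.4, 18.02, 19.99 and 18.7 at 24 h. It was at 14.5, 11.7, 14.2 and 12.8 CPM at 1 wk and 15.8, 16.96, 12.2 and 18.7 at 2 wk. All 1 wk libraries were below all sedentary and all 24 h libraries.

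**Figure D2:**
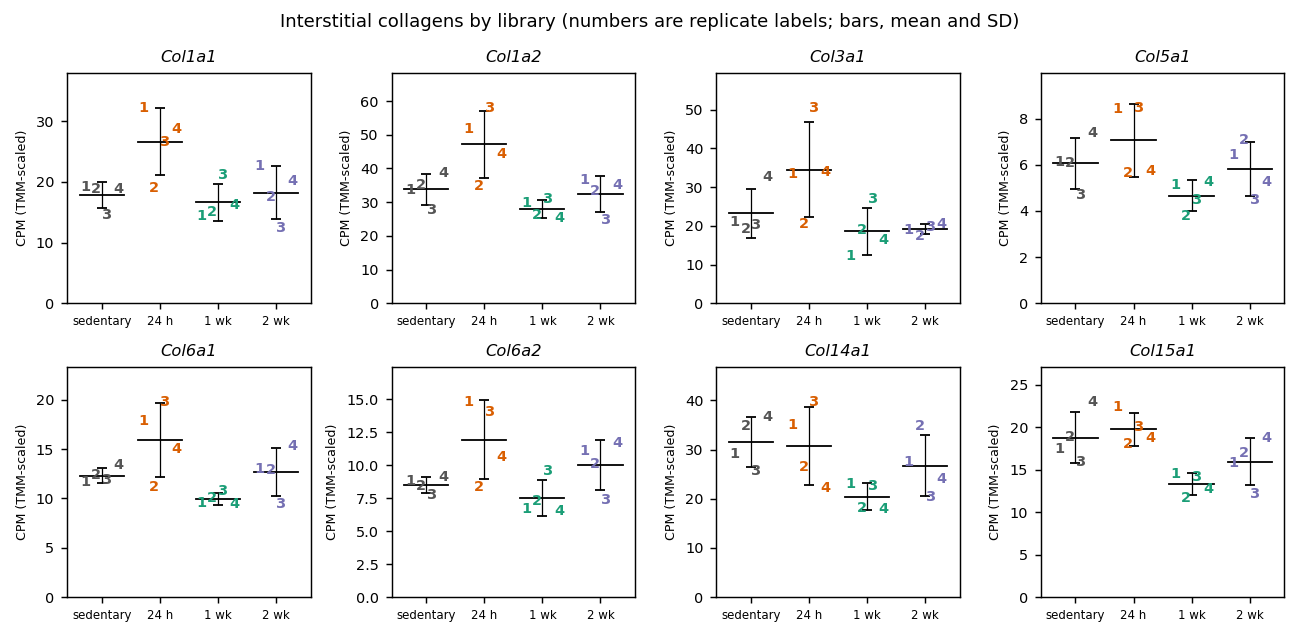
TMM-scaled CPM (linear axis from 0) of 8 collagen genes of the interstitium in each library. Digits are replicate labels, the horizontal line is the mean of 4 libraries and the bar is the SD. For Col1a2, 3 of the 24 h libraries lie at 44.3 to 57.8 CPM, above all others, and library 2 at 34.7 lies among the sedentary values.

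Of the fibrillar genes, Col1a1 and Col1a2 were highest in 3 of the 4 libraries of 24 h. Col1a1 (chr11:94936224-94953042, GRCm38, plus strand) was at 19.1, 18.8, 14.6 and 18.8 CPM in sedentary mice and 32.1, 19.04, 26.6 and 28.7 at 24 h. It was at 14.4, 14.96, 21.1 and 16.3 CPM at 1 wk and 22.6, 17.6, 12.5 and 20.2 at 2 wk. At 24 h, library 2 was within the sedentary range and the other 3 were above every library of the other groups. Col1a2 (chr6:4504814-4541544, plus strand) was at 33.7, 35.2, 27.5 and 38.6 CPM in sedentary mice and 51.7, 34.7, 57.8 and 44.3 at 24 h. For Col1a2 the 1 wk values were 29.6, 26.2, 30.9 and 25.2 CPM and the 2 wk values 36.4, 33.3, 24.8 and 34.97. The order of the libraries was close to that of Col1a1, with 24 h library 2 again at the sedentary level.

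Col3a1, of the type III fibrils that accompany type I, was at 20.9, 19.2, 20.3 and 32.6 CPM in sedentary mice and 33.5, 20.5, 50.3 and 33.8 at 24 h. It was at 12.3, 18.8, 26.9 and 16.3 CPM at 1 wk and 18.8, 17.4, 19.6 and 20.5 at 2 wk. Sedentary library 4 was above 24 h library 2 and close to 24 h libraries 1 and 4, and 24 h library 3 was the highest of all. Col5a2, a chain of the type V that sets fibril diameter, was at 13.5, 11.1, 11.7 and 11.54 CPM in sedentary mice and 16.7, 15.7, 13.97 and 14.4 at 24 h. At 1 wk its values were 11.7, 14.3, 12.7 and 16.5 CPM and at 2 wk 13.6, 15.1, 16.7 and 9.52. Col5a2 was the single collagen whose 24 h libraries were all above all sedentary ones. Its partner Col5a1 ranged from 3.77 to 8.45 CPM over the 16 libraries, Col27a1 from 7.79 to 15.98 and Col5a3 from 0.928 to 1.72.

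Type VI collagen forms beaded microfilaments between cells and fibrils. Col6a1 was at 11.7, 12.3, 11.9 and 13.4 CPM in sedentary mice and 17.9, 11.2, 19.8 and 14.99 at 24 h. It was at 9.58, 10.1, 10.8 and 9.47 CPM at 1 wk and 13.01, 12.9, 9.40 and 15.4 at 2 wk. The 1 wk libraries were below all sedentary and all 24 h libraries, and at 24 h library 2 was again the lowest. Col6a2 was at 8.79, 8.41, 7.74 and 9.13 CPM in sedentary mice and 14.8, 8.35, 14.1 and 10.6 at 24 h. Its 1 wk values were 6.68, 7.25, 9.55 and 6.55 CPM and its 2 wk values 11.1, 10.1, 7.33 and 11.7, and all groups overlapped for this gene. Col6a3 was at 8.33, 9.27, 9.03 and 11.3 CPM in sedentary mice and 6.10, 5.01, 7.58 and 7.36 at 1 wk, without overlap. Of the chains that replace alpha 3, Col6a6 ranged from 0.661 to 3.16 CPM, Col6a4 from 0.145 to 0.789, and Col6a5 was at 0 in 1 library.

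Fibril-associated collagens sit on the surface of fibrils. Col14a1 was at 29.1, 34.9, 25.6 and 36.7 CPM in sedentary mice and 34.9, 26.4, 39.6 and 22.2 at 24 h. It was at 23.1, 18.03, 22.5 and 17.98 CPM at 1 wk and 27.6, 34.9, 20.4 and 24.1 at 2 wk. The 1 wk libraries were below all sedentary ones, and 24 h library 4 was below 2 of the 1 wk libraries. Col16a1 ranged from 5.59 to 9.39 CPM over the 16 libraries, Col12a1 from 3.83 to 5.98 and Col19a1 from 0.196 to 1.39. The transmembrane collagen gene Col23a1 ranged from 2.87 to 5.72 CPM, Col26a1 from 2.13 to 4.86 and the vascular short-chain collagen gene Col8a1 from 0.994 to 3.15.

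**Figure D3:**
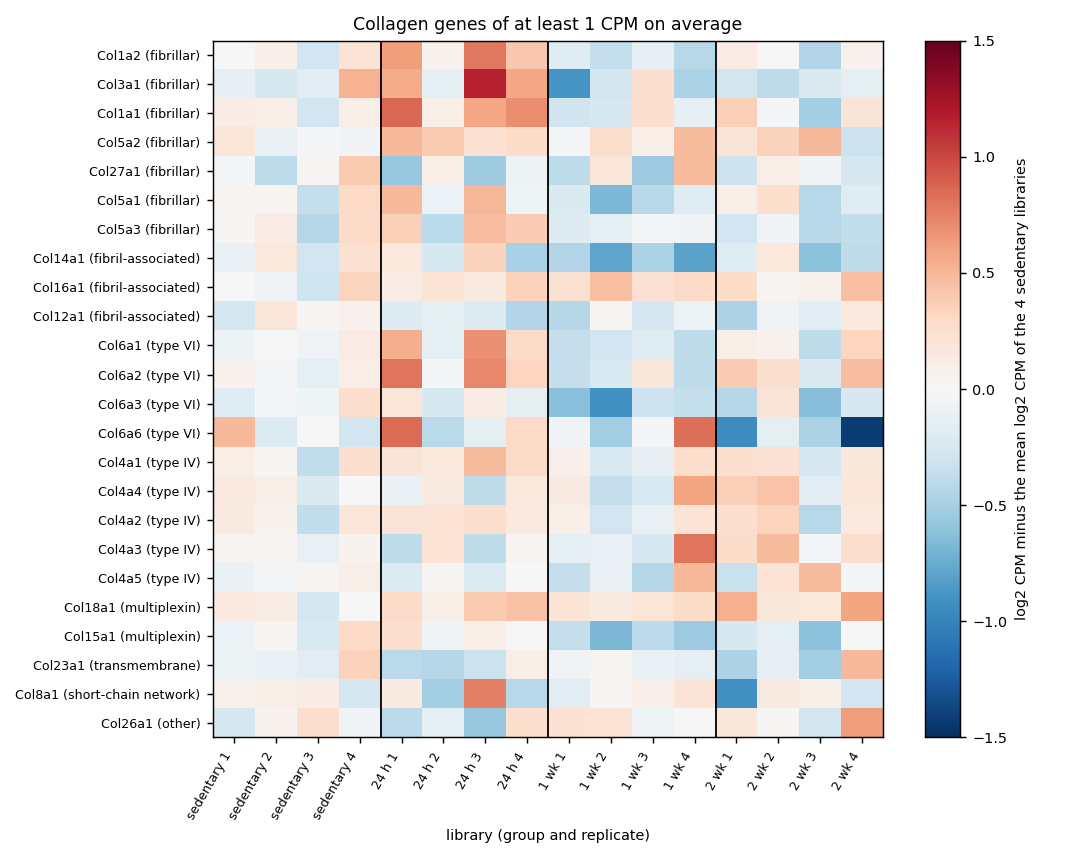
Heat map of the 24 collagen genes of at least 1 CPM on average (rows, by class) in the 16 libraries (columns). Colour gives log2 CPM minus the mean log2 CPM of the 4 sedentary libraries. Libraries 1, 3 and 4 of 24 h are red for Col1a1, Col1a2, Col3a1, Col6a1 and Col6a2, and the 4 libraries of 1 wk are blue for Col14a1, Col15a1 and Col6a3.

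The comparison of 24 h with sedentary asked how collagen RNA stood in the 24 h group. Of the 33 tested genes, 7 had an unadjusted p under 0.05 and all 7 were higher at 24 h. By that rule 4.49% of all 16126 genes tested were higher, 4.43% lower and 8.92% either. The 7 were 4 fibrillar genes, Col1a1, Col1a2, Col3a1 and Col5a2, with Col6a1 and Col6a2 of type VI and the multiplexin gene Col18a1. No collagen passed edgeR's quasi-likelihood test after Benjamini-Hochberg adjustment at 0.05, nor did any of all genes (0%), and DESeq2 and voom also called 0 collagens.

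Fold changes at 24 h are given as log2 with the SE, and the adjusted p is edgeR's. Col1a1 was higher by 0.58 ± 0.18 (26.6 ± 5.54 CPM against 17.8 ± 2.18, SD, n = 4 each, adjusted p = 0.308 by edgeR). Col1a2 was higher by 0.48 ± 0.15 (edgeR adjusted p = 0.311), Col3a1 by 0.57 ± 0.24 (0.501) and Col5a2 by 0.35 ± 0.14 (0.496). In type VI, Col6a2 was higher by 0.49 ± 0.17 and Col6a1 by 0.38 ± 0.15 (edgeR adjusted p = 0.391 and 0.48). Col18a1 was higher by 0.30 ± 0.11 (edgeR adjusted p = 0.444). The type IV genes gave Col4a1 0.27 ± 0.14, Col4a2 0.19 ± 0.15 and Col4a3 −0.11 ± 0.19, and Col15a1 gave 0.07 ± 0.13.

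By class, 7 of the 8 fibrillar genes tested had a positive log2 fold change at 24 h, with a median of 0.41, and the exception was Col27a1 (−0.27 ± 0.21). The 6 type IV genes were split 3 and 3 with a median of −0.01. Type VI was also split 3 and 3, with a median of 0.09, and Col6a3 gave −0.02 ± 0.17. Of the 5 fibril-associated genes tested 2 were positive, with a median of −0.035. Over all 33 collagens the median was 0.16 with 20 positive, against −0.01 over all genes, of which 49.0% were positive. Groups did not overlap for 1 collagen above, Col5a2 (3.55% of all genes), and 1 below, Col19a1 (3.66% of all genes). The count of 7 was 4 without 24 h library 1, and 5 to 8 without any other single library of either group. The median of 0.16 was 0.01 without 24 h library 1, 0.07 without 24 h library 3, 0.10 without sedentary library 1 and 0.10 without sedentary library 3. Col3a1 at 24 h was 0.33 without 24 h library 3, and Col4a1 was 0.17 without sedentary library 3.

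Markers of other cell types at 24 h are set beside these values. The smooth muscle and mesangium markers summed to 180.1 to 233.5 CPM at 24 h and 155.5 to 198 in sedentary mice, and 2 of 9 were higher at an unadjusted p under 0.05, Acta2 (0.60 ± 0.27) and Gata3 (0.31 ± 0.15). Tagln (0.58 ± 0.28) did not pass that threshold. Of these 9 markers 6 had a positive log2 fold change and 3 a negative one, where 49.0% of all genes were positive. Of 5 macrophage markers 1 was higher, Cd68 (0.39 ± 0.18), and their sum was 92.1 to 104.9 CPM against 90.96 to 103. The fibroblast and pericyte sum was 83.7 to 108 CPM against 85.4 to 104.5. Of 8 tested markers 6 had a positive log2 fold change, and 1 was lower at that threshold, Cspg4 (−0.40 ± 0.19). By that rule 4.49% of all genes were higher and 4.43% lower. The highest smooth muscle, macrophage and fibroblast sums were all those of 24 h library 3, and the part of these cells in the collagen levels was not tested.

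**Figure D4:**
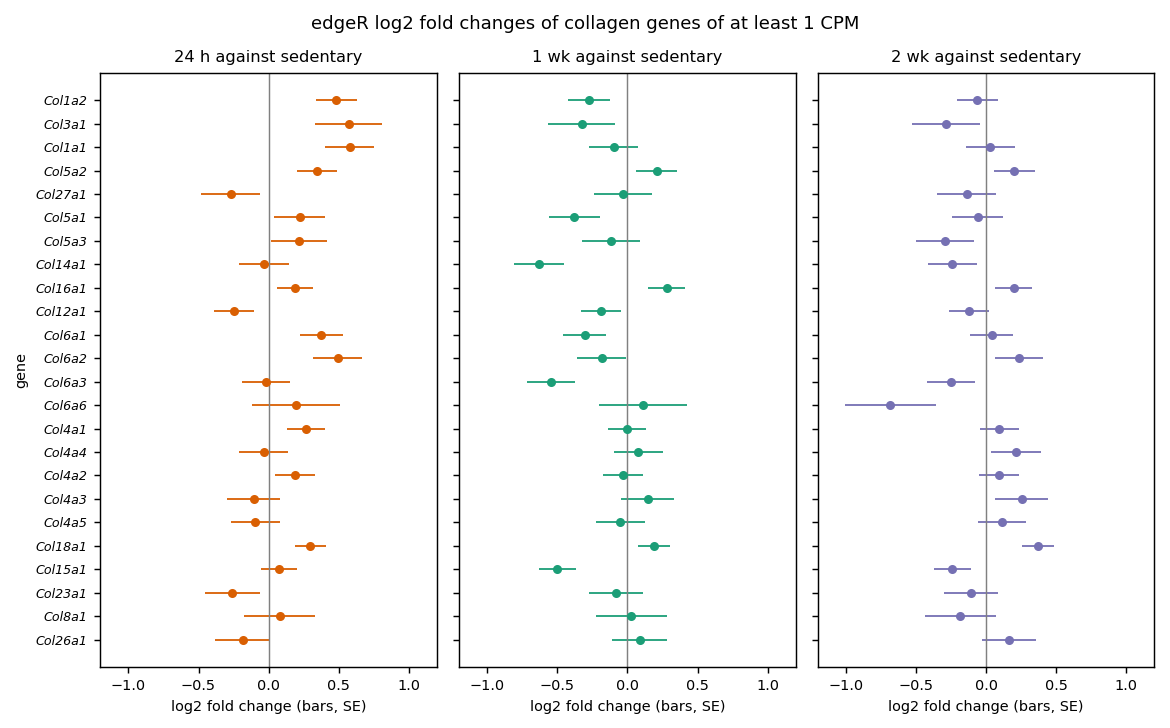
edgeR log2 fold changes (points) with SE (bars) of the 24 collagen genes of at least 1 CPM on average, for each exercised group against the same 4 sedentary libraries. Col1a1 is at 0.58 at 24 h, Col14a1 at −0.63 at 1 wk and Col18a1 at 0.37 at 2 wk, and no gene passed the adjusted threshold.

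At 1 wk the collagens on the lower side were Col14a1, Col15a1, Col6a3, Col13a1 and Col19a1, and none of the 6 type IV genes was among them. At an unadjusted p under 0.05, 5 of 33 genes were lower (3.72% of all genes) and 1 was higher (2.33% of all genes), where 6.05% of all genes were either. No collagen passed the adjusted threshold in edgeR (0% of all genes), DESeq2 or voom. Col14a1 had a log2 fold change of −0.63 ± 0.18 (20.4 ± 2.77 CPM against 31.6 ± 5.09, SD, n = 4 each, edgeR adjusted p = 0.485). Col15a1 gave −0.50 ± 0.13 (edgeR adjusted p = 0.479) and Col6a3 −0.54 ± 0.17 (0.548). Of the low-level genes, Col19a1 gave −0.86 ± 0.40 and the transmembrane collagen gene Col13a1 −0.55 ± 0.25 (edgeR adjusted p = 0.812 and 0.796).

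Col16a1, a fibril-associated collagen, was the one on the higher side at 1 wk, at 0.28 ± 0.13 (edgeR adjusted p = 0.819). The fibrillar genes gave Col1a1 −0.10 ± 0.18, Col1a2 −0.27 ± 0.15 and Col3a1 −0.33 ± 0.24. Col3a1 was −0.11 without sedentary library 4, −0.17 without 1 wk library 1 and −0.56 without 1 wk library 3. The type IV genes gave Col4a1 −0.01 ± 0.14, Col4a2 −0.03 ± 0.15 and Col4a3 0.15 ± 0.19, and Col18a1 gave 0.19 ± 0.11. The sign of Col4a3 rested on 1 wk library 4, without which it was −0.16. Groups did not overlap for 5 collagens, all below: Col6a1, Col6a3, Col14a1, Col15a1 and Col19a1 (2.51% of all genes), and for none above (1.71% of all genes). The median over 33 collagens was −0.10, with 22 negative, against 0.00 over all genes. It was −0.21 without 1 wk library 4, −0.15 without sedentary library 3 and −0.05 without sedentary library 4.

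The number of lower collagens at 1 wk was 3 without sedentary library 1, without sedentary library 4 or without 1 wk library 2, and 4 to 6 without any other library. The count of 1 higher gene became 0 without any single library other than sedentary library 4 or 1 wk library 3. Cell type markers were lower alongside. Of 10 endothelial markers, 9 had an unadjusted p under 0.05 at 1 wk and were lower (3.72% of all genes). Endothelial markers summed to 387 to 481 CPM at 1 wk against 511 to 594 in sedentary mice. Of the 8 fibroblast and pericyte markers tested out of 10, 4 were lower by that rule (3.72% of all genes), among them Pdgfra and Pdgfrb. The fibroblast and pericyte list summed to 74.4 to 85.1 CPM against 85.4 to 104.5. The part of these markers in the collagen levels was not tested. 

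The collagens as a whole were near the background of all genes at 2 wk. The gene of smallest p was the basement membrane gene Col18a1, with a log2 fold change of 0.37 ± 0.11 (178 ± 28.2 CPM against 138 ± 16.7, SD, n = 4 each, edgeR adjusted p = 0.4). It was the 1 collagen of 33 with an unadjusted p under 0.05 on the higher side (4.02% of all genes), and the 1 whose groups did not overlap above (2.29% of all genes). On the lower side were Col6a4 (−0.79 ± 0.34) and Col6a6 (−0.68 ± 0.32), with edgeR adjusted p = 0.636 and 0.685, where 3.24% of all genes were lower and 7.26% either. No collagen had its 2 wk libraries all below the sedentary ones (2.61% of all genes). No collagen passed after adjustment (0% of all genes) in edgeR, DESeq2 or voom. All 6 type IV genes had a positive log2 fold change with a median of 0.16, where 52.1% of all genes were positive. None of the 6 had an unadjusted p under 0.05, and among them were Col4a1 0.10 ± 0.14, Col4a2 0.09 ± 0.15 and Col4a3 0.26 ± 0.19. Over 33 collagens the median was −0.06, and over all genes it was 0.01. It was −0.10 without 2 wk library 2, −0.02 without 2 wk library 1, 0.01 without 2 wk library 3 and 0.04 without sedentary library 4.

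The other genes gave Col1a1 0.03 ± 0.18, Col1a2 −0.06 ± 0.15, Col3a1 −0.29 ± 0.24 and Col15a1 −0.24 ± 0.13 at 2 wk. Without sedentary library 4, Col3a1 was −0.08 and Col15a1 −0.13, and without 2 wk library 3 Col15a1 was also −0.13. Without sedentary library 3, Col4a1 was −0.01 and Col4a2 was −0.02. On the lower side the 2 genes became 5 without 2 wk library 2, 3 without library 4 and 0 without library 3, and 1 without sedentary library 1, 3 or 4 or without 2 wk library 1. On the higher side the count was 2 without sedentary library 4 or 2 wk library 3 or 4, and 1 otherwise.

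Between durations, the comparison of 1 wk with 24 h counted more collagens than the other 2, with genes of types I, III, V and VI on the lower side. At an unadjusted p under 0.05, 9 of 33 collagens were lower at 1 wk than at 24 h and none was higher (4.72% and 2.43% of all genes, 7.15% either), and the count of lower genes was 9 to 11 without any single library. Col1a2 gave −0.75 ± 0.15 and Col3a1 −0.90 ± 0.24 (edgeR adjusted p = 0.216 and 0.308). Col1a1 gave −0.68 ± 0.18 and Col5a1 −0.60 ± 0.18 (edgeR adjusted p = 0.278 and 0.355). In type VI, Col6a1 gave −0.68 ± 0.15 and Col6a2 −0.68 ± 0.18 (edgeR adjusted p = 0.236 and 0.278). Col15a1 gave −0.57 ± 0.13 and Col14a1 −0.60 ± 0.18 (edgeR adjusted p = 0.236 and 0.355).

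Col6a3 completed the 9. The groups did not overlap for Col1a2, Col5a1, Col6a1, Col6a3 and Col15a1, which were all lower at 1 wk (1.85% of all genes), and for none above (1.07% of all genes). All 6 type VI genes and 6 of 8 fibrillar genes had a negative log2 fold change, and 4 of the 6 type IV genes a positive one. Over all genes 54.4% were positive. edgeR called no collagen after adjustment (0% of all genes) and neither did voom, while DESeq2 called 4, Col1a2 (adjusted p = 0.00843), Col6a1 (0.018), Col15a1 (0.0214) and Col3a1 (0.049). Without 24 h library 2 edgeR called Col1a2 (−0.87, adjusted p = 0.0464). Each of these comparisons uses the same 24 h or 1 wk libraries as those above, so that they are no separate evidence. The summed endothelial markers were 387 to 481 CPM at 1 wk and 452 to 651 at 24 h, the summed fibroblast and pericyte markers 74.4 to 85.1 and 83.7 to 108 CPM, and their part was not tested.

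Levels at 2 wk lay between those of 24 h and 1 wk for Col1a1, Col1a2, Col3a1, Col6a1, Col6a2, Col14a1 and Col15a1, on group means. Against 24 h, 7 of 33 collagens were lower at an unadjusted p under 0.05 and none was higher (4.32% and 5.29% of all genes, 9.61% either), and no groups were apart (1.7% of all genes above and 1.56% below). These were Col1a2 (−0.54 ± 0.15), Col3a1 (−0.86 ± 0.24), Col1a1 (−0.55 ± 0.18), Col6a6 (−0.88 ± 0.32), Col5a3 (−0.51 ± 0.20), Col15a1 (−0.31 ± 0.13) and Col6a1 (−0.33 ± 0.15), with edgeR adjusted p from 0.335 to 0.506. Their number was 3 without 24 h library 1, 4 without 2 wk library 3 and 5 to 8 without any other, while the count of higher genes was 0 to 2. Col6a1 was −0.22 without 24 h library 3 or 2 wk library 3, and Col15a1 −0.20 without 2 wk library 3. Against 1 wk, 3 were higher (2.86% of all genes), Col6a2 (0.42 ± 0.18), Col14a1 (0.39 ± 0.18) and Col6a1 (0.34 ± 0.15), and Col6a6 was lower (−0.79 ± 0.32, 1.71% of all genes lower and 4.58% either), each with an edgeR adjusted p of 0.868. Without 2 wk library 2 Col14a1 was 0.23, and without 1 wk library 4 Col6a6 was −0.47. The number of higher genes there ran from 0 to 9 over the fits without 1 library, with 9 without 2 wk library 3, 0 without 2 wk library 1 or 1 wk library 2, and 1 without 2 wk library 2 or 4. The groups of 2 wk and 1 wk overlapped for every collagen tested (0.93% of all genes above and 0.657% below). After adjustment edgeR called no collagen in either comparison, where 0.0124% and 0% of all genes were called, and DESeq2 and voom called 0.

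In the test over all 4 groups, 10 of 33 collagens had an unadjusted p under 0.05 (8.73% of all genes). The smallest was that of Col1a2 (edgeR adjusted p = 0.248), and 0 collagens passed after adjustment by edgeR (0.0124% of all genes) or voom. DESeq2 called 5 in this comparison, Col1a1, Col1a2, Col3a1, Col6a1 and Col15a1.

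The chains of type I, the alpha 1 and alpha 2 chains of type VI, and the first 2 head-to-head pairs of type IV varied together from library to library. In log2 CPM over the 16 libraries, 6 of 9 pairs chosen for shared trimers, fibrils, promoters or class were correlated. The tests were two-sided permutations with Benjamini-Hochberg adjustment over the 9. Pairs of other genes were not tested, so these values do not show that the chosen pairs vary together more closely than other genes do. Col1a1 and Col1a2 gave Pearson r = 0.894 and Spearman rho = 0.832 (permutation p adjusted 2.25e-05 and 0.00027), and r = 0.844 without the 2 libraries farthest from the median. The head-to-head pair Col4a1 and Col4a2 gave r = 0.932 and rho = 0.835 (permutation p adjusted 2.25e-05 and 0.00027), and r = 0.882 without 2 libraries. Col4a3 and Col4a4 gave r = 0.873 and rho = 0.850 (permutation p adjusted 2.25e-05 and 0.00027), and r = 0.765 without 2 libraries. Col6a1 and Col6a2, of 1 microfilament, gave r = 0.937 and rho = 0.900 (permutation p adjusted 2.25e-05 and 9e-05), and r = 0.883 without 2 libraries. An unadjusted p of 1e-05 for these 4 values of r is the smallest that 100000 permutations can give.

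Of the looser pairs, Col1a1 and Col3a1 gave r = 0.731 and rho = 0.688 (permutation p adjusted 0.00239 and 0.0063), with r = 0.757 without 2 libraries. Col6a1 and Col6a3 gave r = 0.694 and rho = 0.724 (permutation p adjusted 0.00411 and 0.00383), with r = 0.630 without 2. The third head-to-head pair, Col4a5 and Col4a6, gave r = −0.20 and rho = −0.25 (permutation p adjusted 0.583 and 0.45), and r = −0.34 without 2 libraries. Col4a6 had only 29 to 64 counts in a library. Col5a1 and Col5a2 gave r = 0.105 and rho = −0.0059 (permutation p adjusted 0.696 and 0.986), with r = 0.165 without 2. Col15a1 and Col18a1 gave r = 0.110 and rho = 0.0559 (permutation p adjusted 0.696 and 0.943), with r = 0.0346 without 2.

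Within groups, on deviations from the group means, the 4 tight pairs kept r = 0.798 for Col1a1 and Col1a2, 0.928 for Col4a1 and Col4a2, 0.862 for Col4a3 and Col4a4 and 0.914 for Col6a1 and Col6a2. Their adjusted p by permutation within groups was 0.00837 at most. For Col1a1 with Col3a1 (r = 0.5, permutation p adjusted 0.0982) and Col6a1 with Col6a3 (r = 0.567, permutation p adjusted 0.0839) the relation did not pass within groups. Because Col4a1 and Col4a2 overlap by 22 bases and the strand setting of the counting is not given, a few reads at their starts cannot be assigned with certainty. The exons of Col4a3 overlap those of an opposite transcript, C430014B12Rik, over 563 bases, where the transcript had 290 counts in all and Col4a3 82227.

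**Figure D5:**
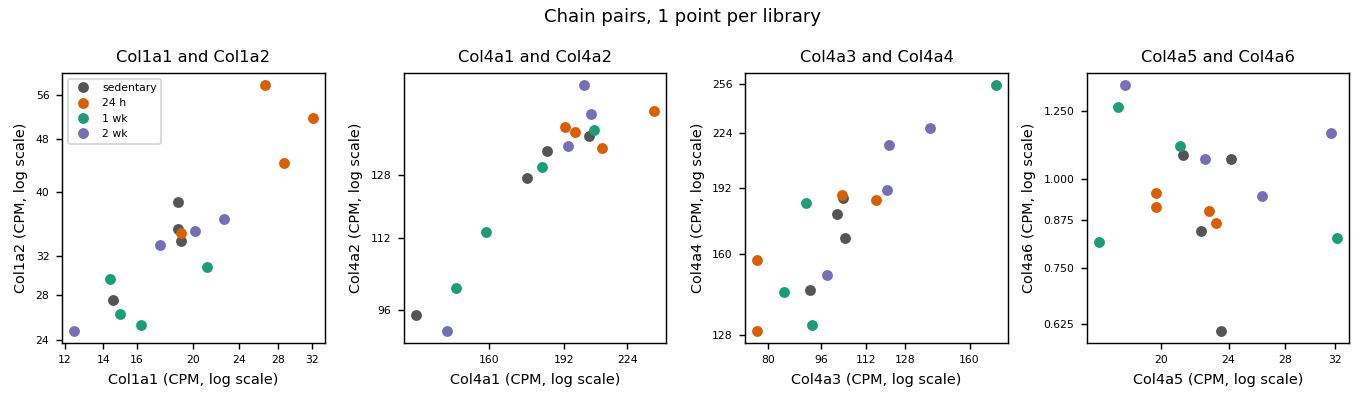
CPM of 4 chain pairs, 1 point per library coloured by group, on log axes. The points of Col1a1 with Col1a2, Col4a1 with Col4a2 and Col4a3 with Col4a4 climb together (r = 0.894, 0.932 and 0.873 over 16 libraries), and those of Col4a5 with Col4a6 do not (r = −0.20).

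Genes that fold procollagen were on the higher side at 24 h too, though no gene of the lists described here passed edgeR's adjusted threshold in any comparison. The counts by list below are of genes at an unadjusted p under 0.05, to be read against 4.49% of all genes higher and 4.43% lower at 24 h, 2.33% and 3.72% at 1 wk, and 4.02% and 3.24% at 2 wk. Of 19 folding and modification genes tested, 5 were higher by that rule (4.49% of all genes) and 1 was lower (4.43% of all genes), and 16 had a positive log2 fold change, with a median of 0.08. P4ha1, a catalytic subunit of prolyl 4-hydroxylase, was at 59.6, 64.4, 59.7 and 69.7 CPM in sedentary mice and 73.3, 86.1, 142 and 90.7 at 24 h, with a log2 fold change of 0.63 ± 0.18 (edgeR adjusted p = 0.285). Serpinh1, which encodes the collagen chaperone HSP47, was at 97.95, 99.8, 103 and 99.9 CPM in sedentary mice and 117, 112, 235 and 132 at 24 h (0.57 ± 0.20, edgeR adjusted p = 0.391). Neither overlapped, and 24 h library 3 was far above the other 3 for both. P4ha2 was likewise above all sedentary libraries at 24 h (0.38 ± 0.12). Without 24 h library 3 the log2 fold changes were 0.40 for P4ha1, 0.26 for Serpinh1 and 0.24 for P4ha2. At 1 wk and 2 wk no folding gene passed the unadjusted threshold on the higher side.

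Of 15 genes of procollagen cleavage and crosslinking, 3 were higher at 24 h (4.49% of all genes) and 3 lower at 1 wk (3.72% of all genes). At 2 wk 1 was higher and 1 lower, a share near that of all genes (4.02% and 3.24%). Lox, the crosslinking lysyl oxidase, gave 0.91 ± 0.33 at 24 h, on 24 to 128 counts per library in these 2 groups and with 0.54 without 24 h library 3, and Loxl2 and Loxl3 gave −0.44 ± 0.17 and −0.50 ± 0.19 at 1 wk. Among 11 tested genes of collagen breakdown and its inhibitors, Mmp13, an interstitial collagenase, was lower in each exercised group. Mmp13 was at 1.52, 1.51, 1.52 and 1.92 CPM in sedentary mice and 1.49, 0.347, 0.565 and 0.538 at 24 h. It was at 0.377, 0.659, 0.945 and 0.585 CPM at 1 wk and 0.388, 0.726, 0.401 and 0.427 at 2 wk. No exercised library reached the lowest sedentary one, but 24 h library 1 came close to it. Its log2 fold changes were −1.11 ± 0.35, −1.34 ± 0.36 and −1.70 ± 0.36 (edgeR adjusted p = 0.329, 0.479 and 0.23), on 14 to 90 counts per library and against the same sedentary libraries. Without 24 h library 1 the 24 h value was −1.73, close to that of 2 wk. DESeq2 passed the 2 wk value (adjusted p = 0.00543) and voom the 24 h value (−1.37, adjusted p = 0.0426). The collagen uptake receptor gene Mrc2 gave −0.29 ± 0.13 at 1 wk and Ctsk, a collagen-degrading cathepsin, −0.45 ± 0.20, or −0.28 without 1 wk library 4. At 24 h Ctsk gave 0.41 ± 0.19 (edgeR adjusted p = 0.559). It was the 1 gene of the 11 higher there at an unadjusted p under 0.05 (4.49% of all genes).

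Among 19 laminins and other basement membrane genes, 6 were lower at 1 wk at an unadjusted p under 0.05 (3.72% of all genes) and none was higher (2.33% of all genes). Nid1, the laminin-binding linker nidogen 1, was at 23.6, 23.6, 21.9 and 31.3 CPM in sedentary mice and 15.8, 13.6, 15.6 and 16.97 at 1 wk. The groups did not overlap and the log2 fold change was −0.70 ± 0.15 (edgeR adjusted p = 0.369), with adjusted p = 0.0226 by DESeq2 and 0.0317 by voom. Lamb3, a laminin chain gene, gave −0.60 ± 0.20 at 2 wk (edgeR adjusted p = 0.446). In the TGF-beta axis of 17 genes, Ltbp1, which holds latent TGF-beta in the matrix, gave −0.55 ± 0.14 at 1 wk and −0.46 ± 0.14 at 2 wk (edgeR adjusted p = 0.45 and 0.398). At 24 h 1 of the 17 was higher and none lower at that threshold, near the 4.49% and 4.43% of all genes, and it was Ltbp2, at 0.80 ± 0.34 on 7 to 31 counts per library.

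Of 13 tested collagen-binding and interstitial matrix genes, 2 were higher at 24 h (4.49% of all genes) and 5 lower at 1 wk (3.72% of all genes) at that threshold. Thbs2, a matricellular thrombospondin, gave 0.46 ± 0.15 at 24 h and 0.45 ± 0.15 at 2 wk (edgeR adjusted p = 0.359 and 0.452), Ogn gave −0.72 ± 0.22 at 1 wk (0.548) and the fibrillin gene Fbn1 −0.40 ± 0.15 (0.673). Of 8 collagen receptors tested, none had an unadjusted p under 0.05 at 24 h, 1 was lower at 1 wk, and at 2 wk 1 was higher and 1 lower, which are single genes beside 3.72% of all genes lower at 1 wk and 4.02% higher and 3.24% lower at 2 wk. These were Lair1 (−0.66 ± 0.31 at 1 wk and −0.66 ± 0.31 at 2 wk) and Adgrg1 (0.33 ± 0.13 at 2 wk, 0.20 without 2 wk library 4), while Ddr2, the discoidin receptor for fibrillar collagen, gave −0.37 ± 0.19 at 1 wk.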

How the data were processed

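RNA of flash-frozen kidney cortex was isolated with a Qiagen RNeasy kit and prepared for sequencing by TruSeq Stranded mRNA chemistry, as the labels' protocols state. The authors deposited raw counts per gene. HTSeq 0.10.0, FastQC 0.10.1 and GRCm38 (mm10) are named in the submitters' processing notes. An aligner, a gene annotation and the strandedness used in counting are not given in the sources here, so counts of overlapping and near-identical genes are uncertain. Of 24 columns, 8 match no sample and were not used. Symbols, positions and exon lengths came from GENCODE M21 by gene ID (52081 of 55414 IDs, 99.4% of counts), and promoter windows from RefSeq.

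All 16 libraries entered 1 fit in edgeR 4.0.16 (R 4.3.3), with filterByExpr by group (16126 genes kept), TMM scaling and the robust quasi-likelihood F-test, adjusted by Benjamini-Hochberg over all genes at 0.05. DESeq2 1.42.0, voom with quality weights in limma 3.58.1, other scalings and filters, the replicate number as a block, and fits without each library were alternatives. Values after ± are SD for CPM and ratios and SE for log2 fold changes. This SE was derived from edgeR's test, as the absolute log2 fold change over the square root of its F statistic. Log2 CPM for correlations used a prior count of 2. The fit was tested on simulated counts. Libraries of a group differed by more than sampling noise (lowest chi-square over its degrees of freedom 7.88).

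The members, gene lists, tests and rules were chosen with earlier results of these data known. Levels were given for collagens of at least 1 CPM. Fold changes were given for those with an unadjusted p under 0.05, at most 8 per comparison, and always for Col1a1, Col1a2, Col3a1, Col4a1, Col4a2, Col4a3, Col15a1 and Col18a1 against sedentary. Of each pathway list at most 3 genes of smallest p were named. Collagens named beyond the rule, such as Col27a1 and Col6a3 at 24 h and Col6a3 at 1 wk against 24 h, were picked after their values were seen. Of 21 folding genes listed, 20 were found by symbol. Some results are not reported here.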

Additional observations from a re-analysis of the deposited data

Results flagged for a closer look

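Within a group of 4 libraries, 6 values stood far from the other 3, among 96 groups of a gene tested by Dixon's ratio at its 95% critical value. Chance gives about 1 in 20 (5%), or 4.8 of 96. Col4a3 was at 175.2 CPM in 1 wk library 4, where the others were at 84.6 to 93.0. Col3a1 was at 32.61 CPM in sedentary library 4, where the others were at 19.2 to 20.9. Col1a1 was at 14.55 CPM in sedentary library 3, where the others were at 18.8 to 19.1. Col23a1 was at 5.205 CPM and Col8a1 at 1.557 CPM in sedentary library 4, with the others at 3.67 to 3.87 and at 1.95 to 2.02. Col5a3 was at 0.942 CPM in 24 h library 2, where the others were at 1.59 to 1.72.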

How the results depend on the processing

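The count of collagens past the adjusted threshold was 0 in edgeR in each comparison and 0 in 116 of 119 alternative counts. The exceptions were DESeq2, with 4 for 1 wk against 24 h and 5 for the 4 groups together, and leaving out 24 h library 2, so that fits without 1 library gave 0 to 1 for 1 wk against 24 h. With the replicate number as a block, 0 collagens were called in each comparison. Whether the numbers pair the libraries cannot be settled from their correlations. Of 24 same-number pairs 8 had a correlation of deviations over 0.1, with a range of −0.239 to 0.375. The median was 0.053, and −0.0222 for other pairs, and 5 of 16 libraries correlated best with their own number. Of 1278 alternative values of 80 named fold changes, 1249 kept direction and side, 9 came to pass and 20 turned sign. The cause was not tested. Col4a1 at 1 wk was 0.002 with the size factors of DESeq2 and in DESeq2, and −0.11 to 0.082 without 1 library. Col4a2 at 1 wk was −0.136 to 0.049 without 1 library, and Col4a3 was −0.16 to 0.256, and −0.089 in voom. At 2 wk Col1a1 was −0.002 with upper quartile scaling. Without 1 library the 2 wk values were −0.09 to 0.174 for Col1a1, −0.149 to 0.048 for Col1a2, −0.014 to 0.201 for Col4a1 and −0.019 to 0.233 for Col4a2. The r of Col5a1 with Col5a2 was −0.0553 to 0.231 without 1 library. The number of correlated pairs stayed at 6 without any library and was 4 on deviations within groups. A median SE of 0.144 on the log2 scale over all genes at 24 h sets the precision, and genes under 1 CPM rest on few counts.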

Other observations

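Macrophage markers were lower at 1 wk than at 24 h. Of 5 markers, 4 had an unadjusted p under 0.05, all on the lower side (4.72% of all genes lower, 7.15% either), with a median log2 fold change of −0.75. Their summed level was 73.9 to 90.3 CPM at 1 wk and 92.1 to 104.9 CPM at 24 h, without overlap. The smooth muscle and mesangium markers, which share Pdgfrb with the fibroblast list, summed to 180.1 to 233.5 CPM at 24 h and 142 to 192 CPM at 1 wk. No member of either list passed edgeR's adjusted threshold in this comparison.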
